A study of Mus musculus with 24 samples.

Results

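miR-31 is a microRNA whose hairpin gives 2 mature strands, mmu-miR-31-5p and mmu-miR-31-3p. Both were found by name among the 1009 miRNAs listed for the mouse mammary gland, and together they make up the 2 members described here. Both had a mean of at least 1 read per 1000000 miRNA reads (RPM) for 1 stage or more, as did 544 miRNAs in all, but only miR-31-5p reached 100 RPM, as did 188 miRNAs. Small RNA was sequenced from 24 female C57BL/6 mice, 6 at each of 4 stages, with no treatment and no transgene: W10 (adults, week 10 of age), P18 (pregnancy, day 18), Lac7 (lactation, day 7) and Inv3 (involution, day 3). Whole frozen glands were ground (abdominal and inguinal in the study's methods, inguinal alone in the series' design text), so epithelium, fat, vessels, leukocytes and any attached muscle were measured together, and fewer cells of a type and less RNA per cell cannot be told apart. The age of the pregnant, lactating and involuting mice is not given in the sources used here.

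A microRNA guides a silencing complex to messenger RNAs that pair with its seed, the bases 2 to 8 from its 5′ end, and lowers their translation and stability. In the mammary gland, miR-31 is known from mouse studies as a microRNA of stem and basal cells that favours Wnt signalling by repressing Wnt antagonists, and in breast cancer it has been described both as a driver of tumour growth and as a brake on metastasis. The 4 stages differ widely in the makeup of the gland: ducts in fat in the adult, expanding alveoli in late pregnancy, secreting alveoli in lactation, and dying alveoli with returning fat in involution.

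The mature strands and their hairpin are shown because the values below are reads of these exact strands. Capitals mark the seed in the mature strands, and the 2 mature strands in the hairpin. All sequences are from RefSeq (GRCm38.p6) and run 5′ to 3′.
mmu-miR-31-5p: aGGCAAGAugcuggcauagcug
mmu-miR-31-3p: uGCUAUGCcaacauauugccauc
Mir31 hairpin: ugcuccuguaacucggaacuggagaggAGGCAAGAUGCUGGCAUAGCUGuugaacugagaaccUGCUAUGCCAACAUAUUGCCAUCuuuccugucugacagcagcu

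The hairpin of 106 bases lies on the minus strand of chromosome 4, at chr4:88910557-88910662. The 5p strand takes bases 28 to 49 of it (chr4:88910614-88910635, 22 bases) and the 3p strand bases 64 to 86 (chr4:88910577-88910599, 23 bases). In the GENCODE annotation of GRCm38 the whole hairpin falls inside exon 3 (chr4:88909855-88910710) of AL805899.1, a long non-coding RNA transcribed from the same strand. No other mature mouse strand among the 1679 in the RefSeq table carried either seed, or the shorter match of bases 2 to 7, so neither strand has a seed family in that table. Of the 1009 listed names, 854 were matched to that table.

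Sites that pair with the seed of miR-31-5p are shown for Dkk1, a secreted Wnt antagonist, and for Axin1 and Gsk3b, parts of the complex that degrades beta-catenin. All 3 genes have been described as miR-31 targets. Each 3′ UTR, the longest of its gene in the GENCODE annotation (GRCm38), held 1 match to the 7 letters that pair with bases 2 to 8, shown in capitals.
Dkk1: gaatgtaacacttcTCTTGCCaag
Axin1: tcaacatagctgtcTCTTGCCtgc
Gsk3b: aagtcacgttgaggTCTTGCCctc

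The whole printed stretch of Dkk1 lies at chr19:30545947-30545970 on the minus strand. That of Axin1 lies at chr17:26195544-26195567 and that of Gsk3b at chr16:38242397-38242420, both on the plus strand. Only the Dkk1 match is followed by an A, the letter opposite base 1 that is known to strengthen a site. The match TCTTGCC, searched on the transcript strand, occurred in 11.19% of the 3′ UTRs of 21020 protein-coding genes, and with a following A in 3.54%. Messenger RNA was not measured in these libraries, so the matches are a description of the sequences.

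The 24 libraries held 660346 to 1165321 reads on listed miRNAs, so 1 read was worth 0.858 to 1.51 RPM, and 3 reads, the number that a count of 0 allows, 2.57 to 4.54 RPM. These limits and all intervals on reads cover counting error only. Several libraries stood apart in miRNAs of other tissues, none of whose markers was at 0 in all libraries of a stage. The summed level of 4 skeletal muscle miRNAs (miR-1a-3p, miR-133a-3p, miR-133b-3p and miR-206-3p) ranged from 2378 to 24031 RPM in the adults. It ranged from 193.6 to 2420 RPM in pregnancy, from 103.7 to 5001 RPM in lactation and from 215 to 946.7 RPM in involution. The liver miRNA miR-122-5p was above 50 RPM in 5 mice, with 2062 RPM in 1 P18 mouse. Leukocyte miRNAs, 5 in all, summed to 25590 to 48957 RPM at W10 and to 3993 to 12161 RPM at Lac7.

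The level of miR-31-5p was lowest in the adult gland, highest in late pregnancy, lower in lactation and high again in involution. At W10 it was 67.9, 81.3, 155.8, 139.9, 104.1 and 108.4 RPM in the 6 mice. At P18 it was 264.9, 350.0, 255.7, 249.5, 303.8 and 275.9 RPM. At these 2 stages the mice did not overlap, the highest adult lying well below the lowest pregnant mouse.

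At Lac7 miR-31-5p was 148.6, 141.9, 139.4, 210.1, 199.9 and 158.7 RPM. At Inv3 it was 181.1, 284.4, 319.2, 411.6, 162.9 and 257.6 RPM. The involuting mice were the most spread out, reaching from within the lactation range to above the pregnancy range.

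The means ± SD (n = 6 each) were 109.6 ± 33.5 RPM for W10, 283.3 ± 37.9 for P18, 166.4 ± 30.8 for Lac7 and 269.5 ± 91.9 for Inv3. They rest on 656, 1662, 702 and 1609 reads. In the order W10, Lac7, Inv3 and P18, each stage overlapped the next in its mice. The coefficient of variation between mice was 30.6% in adults, 13.4% in pregnancy, 18.5% in lactation and 34.1% in involution. Counting error alone would give 6.10% to 9.91% per library, so at every stage the mice varied by more than counting error.

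**Figure D1:**
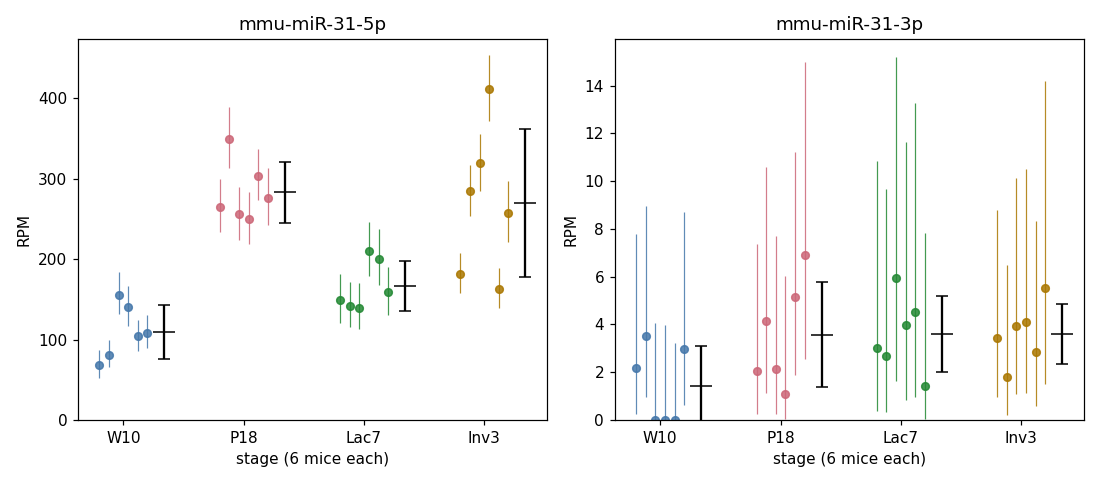
Level (RPM, linear axis from 0) of miR-31-5p at left and miR-31-3p at right by stage; each point is a mouse with its exact 95% counting interval, and the black bar to the right is the mean ± SD of 6 mice, cut at 0 for miR-31-3p at W10. miR-31-5p at W10 stays at or below 155.8 RPM while all P18 mice are at 249.5 RPM or more; the counting intervals of miR-31-3p overlap at all stages.

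miR-31-5p rose from W10 to P18 by 1.41 ± 0.21 on the log2(RPM + 1) scale (± SE; 95% interval 0.98 to 1.84; limma, Benjamini-Hochberg adjusted p = 2.81e-06, two-sided), a ratio of means of 2.59. It was higher in 6 of 6 pregnant mice than in any adult. In this comparison 41.5% of the 544 miRNAs were called at an adjusted p below 0.05, 12.1% as higher and 29.4% as lower at P18, and 26.65% did not overlap between the groups. The median of all 544 miRNAs moved by −0.32 on the same scale, so the rise of miR-31-5p ran against the general shift, and 31 miRNAs rose by more. Scaled by size factors, which centre the typical miRNA instead of the total, that median was −0.09.

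The W10 libraries carried the most muscle miRNA. Of the adults, mouse 4 had the highest muscle sum (24031 RPM) with 139.9 RPM of miR-31-5p, and mouse 3 the lowest (2378 RPM) with 155.8 RPM. Mice 1, 2, 5 and 7 had muscle sums of 10998.5, 11720.6, 15314.7 and 3714.6 RPM. Their levels of miR-31-5p were 67.9, 81.3, 104.1 and 108.4 RPM in the same order. Without the 4 adults above 10000 RPM of muscle miRNA, the rise to P18 was 1.11 (limma, adjusted p = 0.00382). Of 6 luminal epithelial miRNAs, 5 were called higher at P18 than at W10, beside 12.1% of all miRNAs. These 5 are all of the miR-200 family, while miR-375-3p was not called (0.66; limma, adjusted p = 0.298). The sum of the 6 went from a range of 14834 to 20724 RPM to one of 48841 to 63576 RPM, and their part in the rise of miR-31-5p was not tested.

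From P18 to Lac7 miR-31-5p fell by 0.77 ± 0.21 (95% interval −1.21 to −0.34; limma, adjusted p = 0.00305), and no lactating mouse reached the lowest pregnant mouse. Among all miRNAs 45.2% were called, 13.8% higher and 31.4% lower at Lac7, and 29.04% did not overlap. The median of all miRNAs fell by 0.34, and 165 fell by more than miR-31-5p. On size factor scaling the fall was −0.47 with an adjusted p of 0.0524 (limma), so the direction stayed and the call did not. The median on that scaling was −0.13.

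From Lac7 to Inv3 miR-31-5p rose by 0.64 ± 0.21 (95% interval 0.21 to 1.07; limma, adjusted p = 0.0129). The groups overlapped, since 2 involuting mice, at 162.9 and 181.1 RPM, lay within the lactation range. Among all miRNAs 46.9% were called, 27.9% higher and 18.9% lower at Inv3, 24.82% did not overlap, and the median moved by 0.28. On size factor scaling the rise was 0.47 (limma, adjusted p = 0.0544), beside a median of 0.17. Without the 5 mice above 50 RPM of the liver miRNA miR-122-5p, 3 of them at Inv3, it was 0.47 (limma, adjusted p = 0.189).

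miR-31-5p in lactation lay above the adult level by a smaller margin. It was higher at Lac7 than at W10 by 0.64 ± 0.21 (limma, adjusted p = 0.00904), with overlapping groups, in a comparison where 66.7% of all miRNAs were called, 41.73% did not overlap and the median was −0.66. On size factor scaling the difference was larger, at 1.19. It lost the call without the 4 adults rich in muscle miRNA (0.34; limma, adjusted p = 0.318) and without the 2 lactating mice with the least muscle miRNA (0.48; limma, adjusted p = 0.074).

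In involution miR-31-5p was well above the adult level and did not pass the test against pregnancy. miR-31-5p was higher at Inv3 than at W10 by 1.28 ± 0.21 (limma, adjusted p = 2.41e-05), a ratio of means of 2.46, and no involuting mouse overlapped the adults. Here 39.2% of all miRNAs were called, 15.07% did not overlap, the median was −0.41 and 20 miRNAs rose by more. Between Inv3 and P18 the difference was −0.13 (95% interval −0.57 to 0.30; limma, adjusted p = 0.686), in a comparison where 28.5% of all miRNAs were called. The comparisons share stages, so they are not independent of one another.

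The 3p strand was near the limit of detection at every stage. miR-31-3p was read 9 times in the 6 W10 libraries, 21 times at P18, 15 times at Lac7 and 21 times at Inv3, with 0 to 6 reads in a library. The levels were 2.16, 3.5, 0, 0, 0 and 2.98 RPM at W10, and 2.04, 4.14, 2.13, 1.08, 5.15 and 6.90 RPM at P18. The 3 libraries without a read were all from adults.

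At Lac7 miR-31-3p was 3.00, 2.68, 5.93, 3.99, 4.54 and 1.40 RPM, and at Inv3 3.43, 1.80, 3.95, 4.10, 2.86 and 5.54 RPM. Mean levels were 1.44 ± 1.63, 3.57 ± 2.22, 3.59 ± 1.58 and 3.61 ± 1.26 RPM (SD, n = 6) in the order W10, P18, Lac7 and Inv3. The last 3 stages lay on top of each other.

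By the ratio of summed reads, each over the summed library totals, miR-31-3p was 2.42 times as high at P18 as at W10 (exact 95% interval 1.06 to 6.0), 2.40 times at Lac7 (0.98 to 6.22) and 2.34 times at Inv3 (1.03 to 5.81). limma called all 3 differences from W10, with adjusted p of 0.0385, 0.0169 and 0.0242. These calls rest on the 3 adults at 0 reads: without mouse 3, 4 or 5 of W10, left out one at a time, each call was lost, with adjusted p of 0.0508 to 0.105 (limma). The call for P18 was also lost without mouse 2, 5 or 6 of P18 and that for Inv3 without mouse 6 of Inv3, and with a pseudocount of 10 the first and the last call were lost. Among P18, Lac7 and Inv3 the ratios were 0.968 to 0.991, with adjusted p of 0.888 to 0.949 (limma), so a fall at Lac7 like that of miR-31-5p was not detectable at this depth.

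Both strands come from the same hairpin, and in most hairpins one strand is kept and the other is degraded. Of 4695 miR-31 reads 66 were 3p, which is 1.41% (exact 95% interval 1.09 to 1.79). The share was 1.35% in adults (0.62 to 2.55), 1.25% in pregnancy (0.77 to 1.90), 2.09% in lactation (1.18 to 3.43) and 1.29% in involution (0.80 to 1.96). The intervals overlapped at all stages. As a mean log2 ratio within a library, 5p over 3p was 5.76, 6.10, 5.25 and 5.85, and none of the 6 differences between stages passed an exact two-sided permutation test after adjustment over 18 ratio tests, the lowest adjusted p being 0.0731 for Lac7 against P18 (−0.85). The sign of the difference of P18 and of Inv3 from W10 depended on the value added to 3p levels at 0: with 0.1 RPM in place of 1 it was −1.10 and −1.42, in place of 0.34 and 0.09. Without mouse 6 of P18 the difference of Lac7 from P18 was −1.04, with an adjusted p of 0.0223 (exact permutation).

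Set against other miRNAs of the same library, miR-31-5p behaved differently by partner. A ratio within a library does not depend on how libraries were scaled, and each was tested with an exact two-sided permutation test of 6 against 6 mice, which cannot go below 0.00216. Levels of different miRNAs are captured with different efficiency, so the ratios are compared between stages only.

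miR-205-5p is a marker of basal epithelium and mammary progenitors. Its means were 437.1, 460.7, 154.8 and 688.4 RPM at W10, P18, Lac7 and Inv3, so it did not share the rise of miR-31-5p in pregnancy (0.15; limma, adjusted p = 0.656). The log2 ratio of miR-31-5p to miR-205-5p was −1.95 ± 0.65 for W10, −0.69 ± 0.34 for P18, 0.11 ± 0.34 for Lac7 and −1.31 ± 1.0 for Inv3 (SD, n = 6). It was thus highest in lactation, when both miRNAs fell but miR-205-5p fell further. Another basal or squamous marker, miR-203-3p, also moved down from P18 to Lac7 on the RPM scale (−0.41, limma adjusted p = 0.0168). On size factor scaling that call was lost (−0.11, limma adjusted p = 0.553), while miR-205-5p kept its own (−1.27, limma adjusted p = 0.000113). From Lac7 to Inv3 miR-203-3p moved by −0.71 (limma, adjusted p = 0.000143), against 2.06 for miR-205-5p. The ratio thus sets miR-31-5p against miR-205-5p and not against basal cells as a whole.

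The ratio to miR-205-5p rose by 1.26 from W10 to P18 (exact permutation p = 0.00216, adjusted 0.00779) and by a further 0.80 from P18 to Lac7 (exact p = 0.00649, adjusted 0.0167). It then dropped by 1.42 from Lac7 to Inv3 (exact p = 0.00433, adjusted 0.0130). At Inv3 the mice ranged from −2.56 to 0.02, and neither the difference from W10 (0.64; exact permutation adjusted p = 0.328) nor that from P18 (−0.62; adjusted p = 0.298, exact) passed.

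The miR-200 family (the 3p strands of miR-200c, miR-429, miR-200a, miR-141 and miR-200b) marks epithelial cells, mostly luminal, and is known for holding back epithelial to mesenchymal transition. Its summed level ran from 14825 to 20697 RPM in adults, from 48824 to 63534 RPM in pregnancy, from 113670 to 133068 RPM in lactation, and in involution from 23151 to 78252 RPM. Relative to that sum, miR-31-5p had a log2 ratio of −7.29 ± 0.38 for W10, −7.67 ± 0.18 for P18, −9.53 ± 0.33 for Lac7 and −7.39 ± 0.65 for Inv3 (SD, n = 6). The lactating mice formed a group of their own, all at or below −9.11.

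From W10 to P18 the ratio to the miR-200 family moved by −0.37 (exact permutation p = 0.0584, adjusted 0.117), so a difference between the rise of miR-31-5p and that of the epithelial miRNAs did not pass the test. Without mouse 1 of W10 the difference was −0.49 and passed (exact permutation, adjusted p = 0.0195). From P18 to Lac7 the ratio fell by 1.87 with no overlap (exact permutation p = 0.00216, adjusted 0.00779), and from Lac7 to Inv3 it rose by 2.14, again with no overlap (exact p = 0.00216, adjusted 0.00779). Inv3 differed from W10 by −0.10 (exact permutation adjusted p = 0.830) and from P18 by 0.28 (exact, adjusted p = 0.527). These ratios carry the changes of both terms: from P18 to Lac7 miR-200a-3p, the member with the most reads, rose by 1.11 (limma, adjusted p = 0.000574), and 5 of the 6 luminal markers were called higher, beside 13.8% of all miRNAs. They compare miR-31-5p with the epithelial miRNAs and do not test its fall alone.

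**Figure D2:**
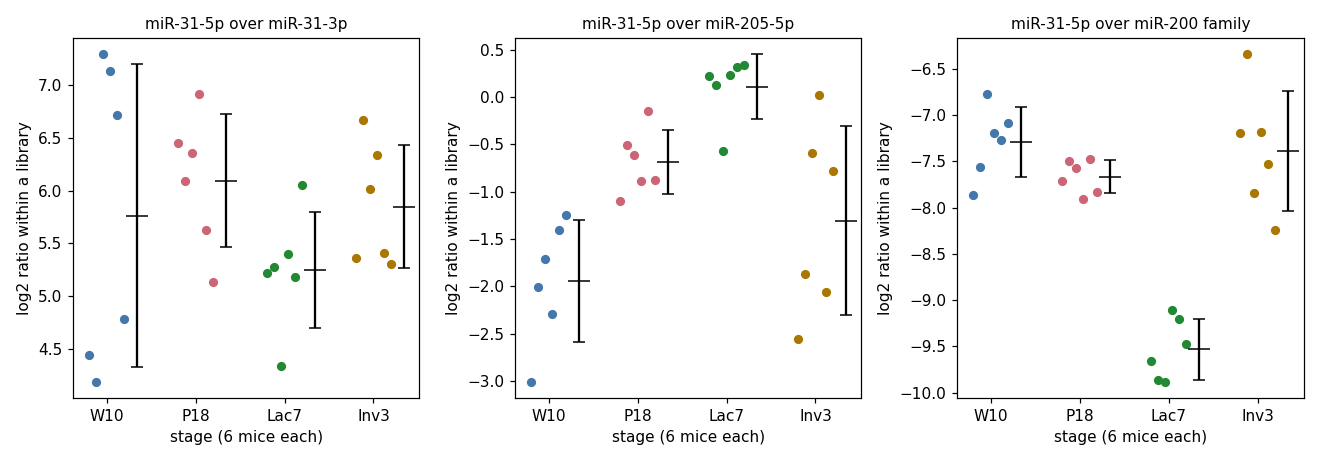
Log2 ratio, within each library and with 1 RPM added to both terms, of miR-31-5p to miR-31-3p, to miR-205-5p and to the summed miR-200 family by stage; points are mice and black bars the mean ± SD of 6. Against miR-205-5p the ratio is highest at Lac7 (mean 0.11), and against the miR-200 family it is lowest there (mean −9.53) with no overlap with any other stage.

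miR-31 is one of a set of miRNAs linked to mammary stem and progenitor cells, and 9 others of that set were tested beside it. The set was not split by the direction of that link, so its counts do not measure stem or progenitor cell content. From W10 to P18, 5 of the 9 were called higher, 2 lower and 2 were not called, beside 12.1% called higher and 29.4% lower among all miRNAs, with a median of 0.63 against −0.32 for all. On size factor scaling 6 were higher and 2 lower, let-7b-5p being added, with a median of 0.88 against −0.09 for all. The share of all miRNAs called was counted on the RPM scale only. Counts on size factor scaling, here and below, therefore stand without such a share. miR-146b-5p, which is known to rise with alveolar progenitors, went from a mean of 2358 to 31080 RPM (3.73; limma, adjusted p = 1.83e-11). miR-183-5p (2.02), miR-200c-3p (1.23), miR-93-5p (0.68) and let-7c-5p (0.63) also rose. miR-22-3p, which has been tied to stem cell expansion, fell by 1.22, and miR-193b-3p, a repressor of alveolar differentiation, fell by 1.45 at levels under 10 RPM.

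From P18 to Lac7, 3 of the 9 fell (miR-205-5p by 1.57, miR-93-5p by 1.28 and let-7c-5p by 0.38), 1 rose (miR-146b-5p by 0.70) and 5 were not called, beside 13.8% higher and 31.4% lower among all miRNAs, with a median of 0.19 against −0.34 for all. With size factors the counts were 3 higher and 2 lower, with a median of 0.49 against −0.13 for all. There let-7c-5p lost its call (−0.07, limma adjusted p = 0.646), and miR-200c-3p (0.71) and miR-22-3p (0.56) were called higher. From Lac7 to Inv3, 3 rose (miR-205-5p by 2.06, miR-22-3p by 0.53 and miR-93-5p by 0.32) and 6 fell (let-7b-5p among them, by 0.35). Their median was −0.41, against 0.28 for all, of which 27.9% were called higher and 18.9% lower. With size factors 1 of the 9 was called higher, miR-205-5p, as miR-22-3p also lost its call (0.35, limma adjusted p = 0.131), and 6 lower. The median on that scaling was −0.59, against 0.17 for all. Of the 9, miR-93-5p alone took all 3 calls of miR-31-5p, up, down and up, although on size factor scaling its last step was 0.15 (limma, adjusted p = 0.195).

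Over the longer spans, 4 of the 9 were called higher and 3 lower at Lac7 than at W10, with a median of 0.04 against −0.66 for all. Among all miRNAs 66.7% were called there in either direction. The shares of all miRNAs by direction were not counted for these spans. With size factors 5 of the 9 were higher and 1 lower, as miR-22-3p and miR-93-5p lost their calls and let-7b-5p gained one. At Inv3 against W10, with 39.2% of all called, 4 were higher and 2 lower, or 4 and 1 on size factor scaling. Between P18 and Inv3, where miR-31-5p was not called, 1 was higher at Inv3 and 5 were lower, or 1 and 4 on size factor scaling, beside 28.5% of all miRNAs called. The median of the 9 was −0.15 at Inv3 against W10 (−0.41 for all) and −0.48 at Inv3 against P18 (−0.11 for all). Members of the set moved in both directions at each step, and miR-31-5p followed neither its basal member miR-205-5p nor its luminal members miR-200c-3p and miR-183-5p throughout.

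**Figure D3:**
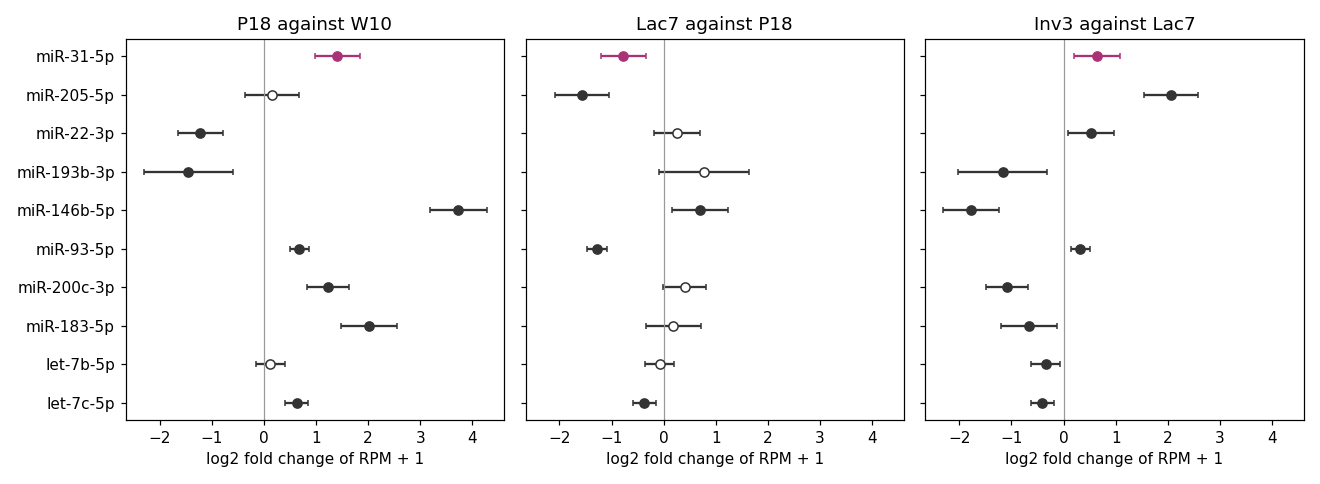
Log2 fold change of RPM + 1 with its 95% interval for miR-31-5p (purple) and 9 miRNAs linked to mammary stem and progenitor cells, for P18 against W10, Lac7 against P18 and Inv3 against Lac7; filled points have an adjusted p below 0.05 (limma), open points do not. miR-31-5p (1.41, −0.77 and 0.64) and miR-93-5p (0.68, −1.28 and 0.32) are filled in all 3 panels with the signs up, down and up. On size factor scaling miR-31-5p lost its calls for Lac7 against P18 and Inv3 against Lac7. miR-93-5p lost that for Inv3 against Lac7.

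Few miRNAs shared the sequence of calls up in pregnancy, down in lactation and up in involution. Of 544 miRNAs 6 showed it, 5 of them with at least 100 RPM, and 8 showed the opposite sequence. The 6 were miR-31-5p, miR-15a-3p, miR-25-3p, miR-93-5p, miR-204-5p and miR-301a-3p, named here because of their values. miR-25-3p and miR-93-5p come from the same cluster. Of these 6, miR-31-5p was the 1 also called higher at Lac7 than at W10. That call was lost without the 4 adults rich in muscle miRNA (0.34, limma adjusted p = 0.318). On size factor scaling miR-31-5p kept its signs but lost calls of the sequence. These were Lac7 against P18 (−0.47, limma adjusted p = 0.0524) and Inv3 against Lac7 (0.47, limma adjusted p = 0.0544). The 6 are therefore those called on the RPM scale. miR-204-5p, with means of 160.5, 416.8, 35.6 and 63.4 RPM, ended far below its adult level, where miR-31-5p ended above it.

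Across the 24 libraries, the miRNAs whose log2(RPM + 1) ran most like miR-31-5p were found by Pearson r among 187 others with at least 100 RPM. The values are descriptive, since the libraries share stage and scaling: the median r was −0.13, 15 lay above 0.5 and 29 below −0.5. miR-143-5p was most alike, with r = 0.83 (0.87 on size factor scaling), and its stage means were 119.8, 233.8, 176.3 and 261.6 RPM. It is the minor strand of miR-143, a miRNA of mesenchymal and smooth muscle cells. Once stage means were taken out, the r of miR-143-5p was 0.48. The major strand miR-143-3p had r = 0.62 over all libraries but −0.47 within stages. Of 5 fibroblast miRNAs, miR-143-3p alone was called higher at P18 than at W10. Of the others, miR-199a-3p, miR-199a-5p and miR-214-3p were called lower and miR-145a-5p was not called. Among all miRNAs 12.1% were called higher and 29.4% lower.

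miR-34a-5p, a target of p53, followed with r = 0.70 (191.7, 261.1, 222.4 and 469.1 RPM), and 0.60 within stages. miR-301a-3p (r = 0.62) shared the 3 calls of miR-31-5p, with 358.4, 732.8, 300.3 and 490.4 RPM. miR-200b-5p (r = 0.60) and miR-183-5p (r = 0.60) shared the rise in pregnancy and were not called lower in lactation. Their means were 218.5 and 954.1 RPM at P18, 285 and 1080 RPM at Lac7, and 206.2 and 775.4 RPM at Inv3. From Lac7 to Inv3 miR-183-5p was called lower (−0.67; limma, adjusted p = 0.0331) and miR-200b-5p was not called (−0.62; limma, adjusted p = 0.0636). miR-24-3p (r = 0.64) and miR-3074-5p (r = 0.62) had the highest r within stages of the most alike miRNAs, at 0.80 and 0.77. Both had their highest mean at Lac7 (430.5, 546.1, 643.3 and 579.6 RPM, and 4671, 5646, 6699 and 6228 RPM). These last 2 overlap by 20 bases on opposite strands at both places in the genome that hold them, and the sources used here do not say how reads were assigned by strand, so they are not counted as separate relations.

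The least alike were miR-378c (r = −0.81), miR-378a-3p (−0.80), miR-133a-3p (−0.77) and miR-1a-3p (−0.76). miR-378a is encoded within Ppargc1b, a regulator of oxidative metabolism, and miR-1a-3p and miR-133a-3p are specific to striated muscle. miR-378a-3p fell from 1262 to 511.1 RPM between W10 and P18, rose to 811.2 RPM at Lac7 and fell to 502.9 RPM at Inv3, each step called and each opposite in sign to that of miR-31-5p. Within stages its r was −0.12, against −0.47 for miR-133a-3p.

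**Figure D4:**
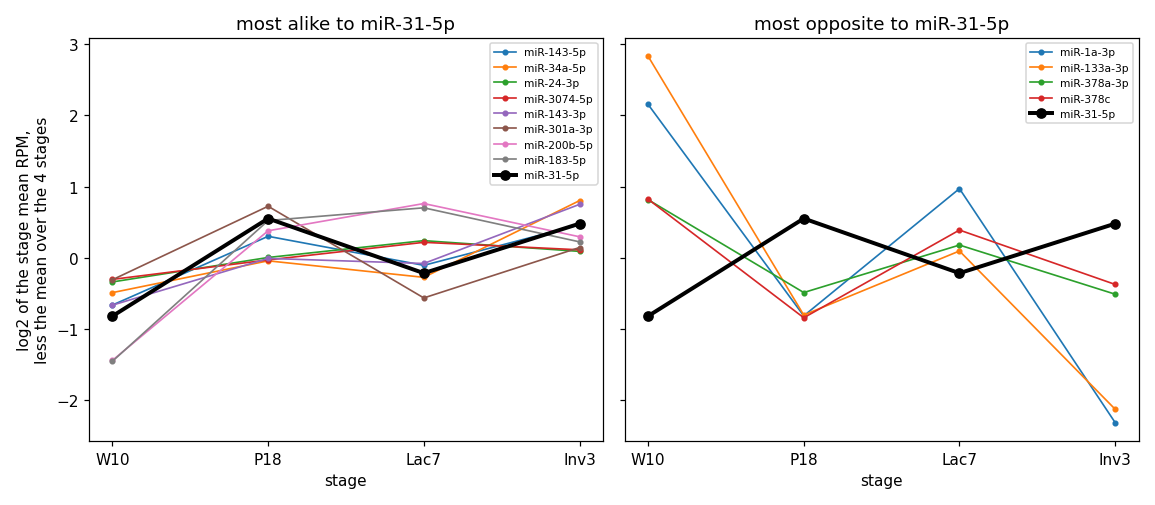
Stage means in RPM on a log2 scale, each less its own mean over the 4 stages, for the 8 miRNAs most alike to miR-31-5p (left) and the 4 least alike (right), with miR-31-5p in black. miR-31-5p and miR-301a-3p peak at P18 and drop at Lac7, whereas miR-378a-3p and miR-378c are lowest at P18 or Inv3 and higher at W10 and Lac7.

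Differences between mice of the same stage were examined with each value taken relative to its stage mean, for 9 partners over 24 mice. With 8 of them miR-31-5p showed no relation past the test (Pearson's r from −0.39 to 0.40, adjusted permutation p of 0.54 to 0.88), miR-31-3p, miR-205-5p, miR-200c-3p, miR-148a-3p and the leukocyte miR-142a-3p among them. With the muscle miRNA miR-133a-3p, r was −0.47 (permutation p = 0.0052, adjusted 0.047) and Spearman's rho −0.50 (permutation p = 0.0082, adjusted 0.074), so the relation passed by one measure and not by the other. Without the 2 mice farthest from the median of miR-133a-3p, both from Lac7, r was −0.39.

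Within the stages r with miR-133a-3p was −0.30 for W10, −0.37 for P18, −0.94 for Lac7 and −0.74 for Inv3, each over 6 mice. With the leukocyte miRNA miR-142a-3p it was 0.09, 0.48, 0.94 and −0.53 in the same order, so the lactating mice stood apart as strongly in that miRNA, in the other direction. Of the remaining partners, the epithelial miR-200c-3p (−0.84) and the endothelial miR-126a-3p (0.68) had the strongest r at Lac7. The lactating group holds 2 mice with 87.8 RPM of miR-133a-3p each, which had the 2 highest levels of miR-31-5p at that stage, 210.1 and 199.9 RPM. The same 2 mice had the highest leukocyte sums of their stage, 12161 and 12133 RPM, against 3993 to 4834 RPM in the other 4. Those 4, with 1655 to 3417 RPM of miR-133a-3p, lay at 139.4 to 158.7 RPM. Without these 2 mice the fall of miR-31-5p from P18 to Lac7 was −0.93 (limma, adjusted p = 0.00188), larger than with them. What part muscle or leukocyte content had in the levels of miR-31-5p was not tested, and in these lactating mice muscle and leukocyte content cannot be told apart.

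**Figure D5:**
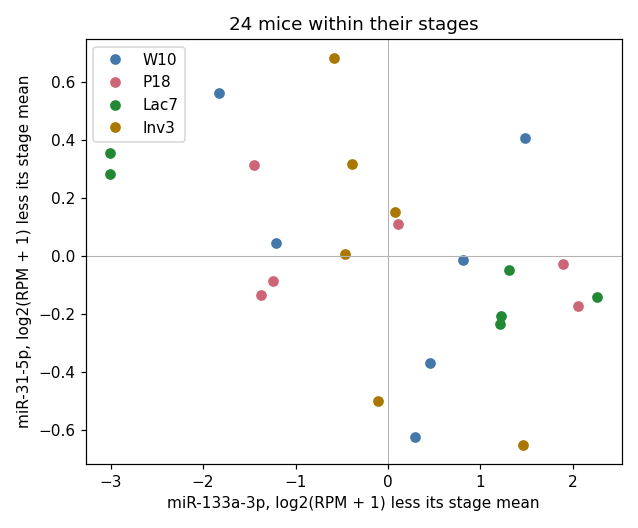
miR-31-5p against miR-133a-3p, a muscle miRNA, in 24 mice, both as log2(RPM + 1) less the mean of the stage; colours mark the stage. The relation is inverse (r = −0.47), with the 2 Lac7 mice low in miR-133a-3p at the far left and above 0 for miR-31-5p.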

How the data were processed

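Small RNA of 24 mouse mammary glands was extracted with the mirVana kit, and libraries were made with the QIAseq miRNA kit. QuickMIRSeq with miRBase 22 was used by the authors for mapping, and they deposited RPM values, that is reads per 1000000 reads on listed miRNAs. The submitters' processing notes also name Trimmomatic 0.36, cutadapt, FastQC, MultiQC and GRCm38. Whether molecular identifiers were used in counting is not given in the sources used here. The day of lactation is 3 in the series' design text and that of involution 7; in the sample labels and the methods they are 7 and 3, which were used. That text also names inguinal glands alone.

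RPM steps gave back whole reads in nearly all values (tolerance 0.1), with 660346 to 1165321 reads per library. No 2 libraries of a stage were alike within sampling noise (chi-square per degree of freedom at least 9.63 over 60 pairs). The 544 miRNAs whose stage mean reached 1 RPM anywhere were tested on log2(RPM + 1) with limma 3.58.1 (R 4.3.3, trend) in one fit over 24 libraries, with Benjamini-Hochberg adjustment over all 544 and a limit of 0.05. This scale understates changes of low miRNAs. Ratios were tested by exact permutation of 924 splits, and relations between mice by 100000 permutations within stages. The replicates are separate mice.

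Named were the 2 members, the 8 most and 4 least alike miRNAs by r, a set of stem and progenitor miRNAs, and tissue markers where they moved with a result. The members and lists were chosen with earlier results of these data known. Alternatives were other pseudocounts and filters, size factors, edgeR 4.0.16, DESeq2 1.42.0, a replicate block, a fit of 12 libraries, a fold limit and each mouse left out; leaving out mice rich or poor in muscle miRNA or rich in liver miRNA was added after seeing the data. The methods were tested on simulated data. Target matches were taken from GENCODE transcripts.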

Additional observations from a re-analysis of the deposited data

Results flagged for a closer look

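Of 20 groups of 6 mice tested for a sample far from the others, 1 was flagged, and chance flags about 1 in 20. It was the log2 ratio of miR-31-5p to miR-205-5p at Lac7, where mouse 3 lay at −0.57 while the other 5 lay higher, the gap taking 0.765 of the group's range against a critical value of 0.625. That mouse had the lowest level of miR-31-5p (139.4 RPM) and the highest of miR-205-5p (207.6 RPM) of its stage. Leaving out single mice of P18 and Lac7 in turn, it included, kept the rise of the ratio from P18 to Lac7 between 0.717 and 0.936.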

How the results depend on the processing

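For miR-31-5p, 133 of its alternative values kept the direction and the side of the threshold, 9 lost the call, and 2 changed sign with no call (Inv3 against P18, 0.041 with edgeR and 0.044 with DESeq2); the rise from W10 to P18 and the excess of Inv3 over W10 kept theirs in every alternative run. The fall from P18 to Lac7 lost its call with size factors (−0.471) and DESeq2 (−0.457). The rise from Lac7 to Inv3 lost it with size factors (0.465) and without the 5 mice rich in miR-122-5p (0.473). The excess of Lac7 over W10 lost it without the 4 adults rich in muscle miRNA (0.335) and without the 2 lactating mice poor in it (0.477). A required log2 fold change of 1 removed all 3 (−0.773, 0.640 and 0.636). For miR-31-3p, 99 values kept direction and side, 14 changed sign with no call and 25 lost a call. P18 against W10 gave 0.243 with a pseudocount of 10, 1.075 with no filter, 1.075 with the fit of 12 libraries, 1.526 with DESeq2, 1.049 without the muscle-rich adults and 0.887 without the mice rich in miR-122-5p. Inv3 against W10 gave 0.258 with a pseudocount of 10, 1.188 with no filter, 1.162 without the muscle-rich adults and 1.178 without the mice rich in miR-122-5p. Lac7 against W10 gave 1.124 without the muscle-rich adults and 1.013 without the lactating mice poor in muscle miRNA. Leaving out single mice moved these 3 from 0.881 to 1.315, from 0.994 to 1.428 and from 0.956 to 1.390. Of the ratio values, 252 kept direction and side, 11 changed sign with no call and 7 gained a call. A pseudocount of 10, which lies above all miR-31-3p values, gave 5p over 3p 1.090 for P18 against W10, −0.751 for Lac7 against P18, 0.609 for Inv3 against Lac7, 0.949 for Inv3 against W10 and 0.340 for Lac7 against W10, where a pseudocount of 0.1 gave −1.098 for P18, −1.419 for Inv3 and −2.0 for Lac7, each against W10; leaving out single mice gave −1.042 to −0.667 for Lac7 against P18. The ratio to the miR-200 family for P18 against W10 was −0.448 with that pseudocount and −0.486 to −0.270 leaving out single mice. All 18 values of the relations kept their side, 1 with a change of sign (miR-200c-3p, size factors, −0.059). The causes of these changes between settings were not tested. The numbers of the mice did not pair them (mean correlation of deviations −0.045 over 33 pairs, with 13 above 0.1), and a fit with the replicate block gave 1.423 for miR-31-5p at P18 against W10 and 0.640 at Inv3 against Lac7, with no call of either strand changed. Depth limits miR-31-3p, at 0 to 6 reads in a library.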
